A study of Drosophila melanogaster with 9 samples.

Results

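Genes for the structure and assembly of the Drosophila sperm, called sperm structural genes below, were followed across RNA libraries of whole third-instar larvae. They are Mst84Da, Mst84Db, Mst84Dc, Mst84Dd, Mst87F, Mst98Ca, Mst98Cb, dj, fzo and betaTub85D. These are 10 of the 17715 genes in the table, of which 16888 had a count in any library. They were listed by name for their role in the sperm, with earlier results of these data known. For each gene the counts of its annotated transcripts were summed and scaled to a library total of 1000000 (CPM).

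The sperm of the fly is built in the testis. Germ cells first grow as primary spermatocytes, which transcribe most of the genes that the later spermatids will need, and several of these mRNAs are then stored untranslated until the spermatids elongate. The larval testis already holds growing spermatocytes at the end of larval life. Mst84Da, Mst84Db, Mst84Dc, Mst84Dd, Mst87F, Mst98Ca and Mst98Cb encode proteins rich in Cys-Gly-Pro repeats that lie along the sperm tail. Don juan (dj) is a basic protein of the sperm tail and its mitochondrial derivatives, fuzzy onions (fzo) is the mitofusin that fuses the mitochondria of early spermatids, and betaTub85D is the testis-specific beta-tubulin of the meiotic spindle and the sperm axoneme.

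The study compared metafemales (XXX), which carry 3 X chromosomes beside 2 sets of autosomes, with normal diploid females (CF, XX) and normal diploid males (CM, XY), with 3 libraries of each. Metafemales were picked as larvae from a cross of C(1)DX,ywf/winscy females with Canton S males, by sex and by black mouthparts, so they carry an attached X chromosome, while the control larvae of both sexes were Canton S. Differences in strain and in the number of X chromosomes therefore cannot be told apart. All were raised at 25 °C, ribosomal RNA was removed, and the labels do not say how many larvae made up a library. Total counts per library were 130919406 to 184268612, so that 3 counts, taken as the floor of a library, equal 0.0163 to 0.0229 CPM. Intervals and floors given below cover counting error only. The counts are estimates, and the intervals treat each as a separate read, so they may be too narrow. Nothing in the labels says that the replicates were separate cultures, so p-values measure the spread between these libraries, which may be technical.

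The libraries matched their labelled sex. The 12 listed Y-linked genes, among them the fertility genes kl-3 and kl-5, had 0 counts in every CF and XXX library, and their summed level was 150 to 532 CPM in CM. The dosage compensation RNAs roX1 and roX2, which coat the male X chromosome, were at 296 ± 50.1 and 263 ± 66.5 CPM in CM (SD, n = 3), against means of 10.7 and 1.6 CPM in CF and 9.35 and 0.19 CPM in XXX. Of 13 regulators of the spermatocyte transcription programme, such as can, vis and comr, 13 were higher in CM than in CF. The accessory gland list, which stands for an adult male tissue, summed to at most 1.33 CPM in any library, with 1 of 3 genes tested higher in CM than in CF. In RNA of whole larvae, fewer cells of a type and less RNA per cell cannot be told apart.

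In males, all 10 sperm structural genes were higher than in females, from 4.76-fold for fzo and 13-fold for Mst87F to between 1150-fold and 4162-fold for 7 of the others. Together they summed to 215, 273 and 170 CPM in the 3 CM libraries, against 5.86 to 6.19 CPM in CF and 2.6 to 5.92 CPM in XXX. Every CM library lay above every CF library for 10 of the 10 genes, which held for 25.9% of the 13967 genes tested. The quasi-likelihood test of edgeR was fitted to all 9 libraries at once. Calls needed an adjusted p under 0.05, over all genes tested, together with a change of more than 1 on the log2 scale. In CM against CF, 10 of the 10 were called higher, beside 17.3% of all genes tested. The median log2 fold change was 11.32 over these genes and 0.01 over all genes tested. All 10 passed the filter on low counts, but those at or near 0 in CF and XXX did so only through the males, so these counts describe where the genes were expressed.

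**Figure D1:**
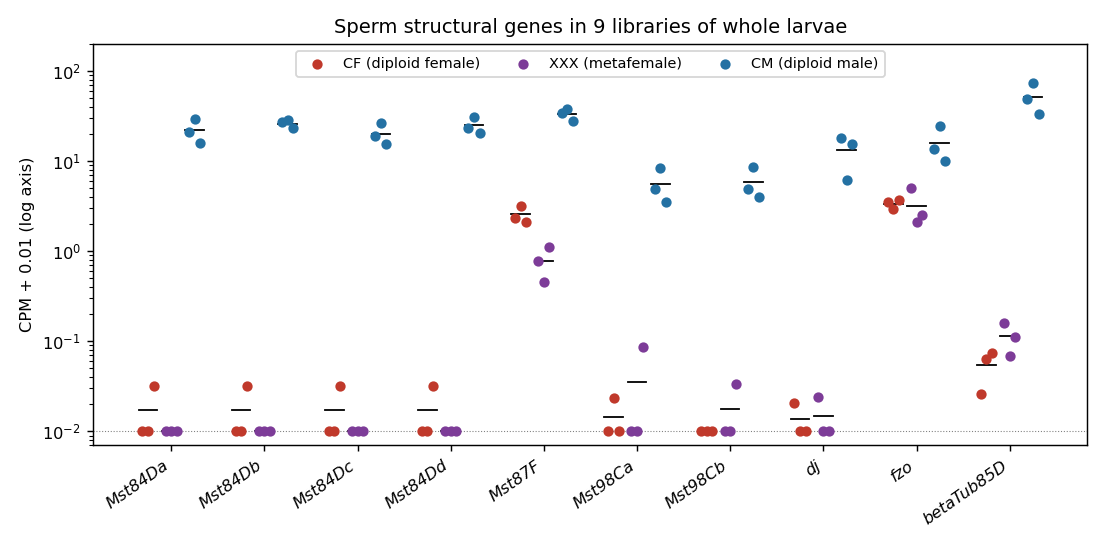
Level of each sperm structural gene in each library, as CPM + 0.01 on a log axis, with points for single libraries and a bar for the mean of each group (n = 3). The blue points of CM lie above those of CF and XXX for all 10 genes. Mst87F and fzo stand apart from the others by their higher levels in CF and XXX. Points on the dotted line are libraries with 0 counts.

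The Mst84D genes form a cluster on chromosome arm 3R. Their 4 transcription units span 2956 bases, from the start of Mst84Dd at 7363307 to the end of Mst84Da at 7366262 in the BDGP6.54 annotation, and each has 2 exons. Mst84Db was at 27, 28.4 and 23.1 CPM in CM and had 0, 0 and 3 counts in CF and 0 in each XXX library. This is 4162-fold higher in CM than in CF from pooled counts (95% counting interval 1424 to 20186), with a log2 fold change of 11.72 (standard error 0.61, adjusted p = 3.92e-05, edgeR). Mst84Da was at 21.1, 29.6 and 16 CPM in CM. Mst84Dc was at 19.2, 26.2 and 15.4 CPM in CM, and 2 transcripts shared its counts. Mst84Dd was at 23.6, 30.7 and 20.8 CPM in CM. All 4 genes thus lay within a narrow range in the same males, and each had the identical female record of 3 counts in CF replicate 3 and 0 in the other females. Their pooled differences between CM and CF were 3626-fold, 3292-fold and 4038-fold for Mst84Da, Mst84Dc and Mst84Dd. Without CF replicate 3 all 4 genes had 0 counts in the remaining CF libraries.

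The annotation of the locus bears on these counts. The exons of Mst84Da share 269 of 358 bases with MstProx on the opposite strand, and the sources used here do not say whether reads were counted by strand. MstProx had 1.25 to 2.53 CPM in CM and at most 0.123 CPM in CF and XXX, well below Mst84Da. The Mst84D genes also encode related proteins, so how the authors' counting divided any shared reads between them is uncertain, and their sum is firmer than each alone.

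Mst87F encodes a short Cys-Gly-Pro protein from 168 coding bases in 2 exons, at 3R 13827151 to 13828008. It was at 34.2, 37.8 and 27.9 CPM in CM. In CF it was at 2.34, 3.19 and 2.13 CPM, and in XXX at 0.765, 0.446 and 1.11 CPM. Unlike the Mst84D genes, Mst87F was therefore counted in every library of both groups that lack a Y chromosome, with 294 to 479 counts in CF. It was 13-fold higher in CM than in CF, a log2 fold change of 3.59 (standard error 0.31, adjusted p = 6.17e-05, edgeR). Most of its counts in all groups belonged to the transcript FBtr0082884, with 431, 452 and 255 counts in CF. The only annotated gene that overlaps it, lncRNA:CR43300, shares 41 exon bases on the other strand and had 0 counts in CF.

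Mst98Ca and Mst98Cb are single-exon genes on the same strand of 3R, 141 bases apart (28291338 to 28292656 and 28292798 to 28293863). Mst98Ca was at 4.94, 8.41 and 3.54 CPM in CM. Mst98Cb was at 4.9, 8.65 and 4.03 CPM in CM. The order of the male libraries was the same for both neighbours, and their ratio per kilobase within a library was 0.814, 0.786 and 0.71. Mst98Ca had 2 counts in all CF libraries together, so it was 1400-fold higher in CM (95% counting interval 387 to 11566; adjusted p = 0.000552, edgeR). Mst98Cb had 0 counts in each CF library and was at least 303-fold higher in CM, with 3 counts per library as the floor (adjusted p = 0.000237, edgeR). In XXX, only replicate 3 had counts of the pair, 13 for Mst98Ca and 4 for Mst98Cb. These proteins are alike, and a division of shared reads between them is uncertain.

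For dj, at 3R 7059315 to 7060524, the males differed in another way. It was at 18.1, 6.12 and 15.5 CPM in CM, with 2 counts in all CF libraries and 2 in all XXX libraries. The level in CM was 2950-fold that in CF (95% counting interval 816 to 24366), with a log2 fold change of 11.31 (standard error 0.95, adjusted p = 5.84e-05, edgeR). CM replicate 2 was the lowest male library for dj and the highest for the 9 other genes by CPM. The annotation has 3 transcripts of dj. In CM replicates 1 and 3 all 2405 and 2025 counts were assigned to FBtr0305962, which has 1 exon and 561 coding bases. In CM replicate 2, FBtr0305962 had 416 counts and FBtr0089741, which has 2 exons and 654 coding bases, had 673, so the first took 38.2% of the gene.

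**Figure D2:**
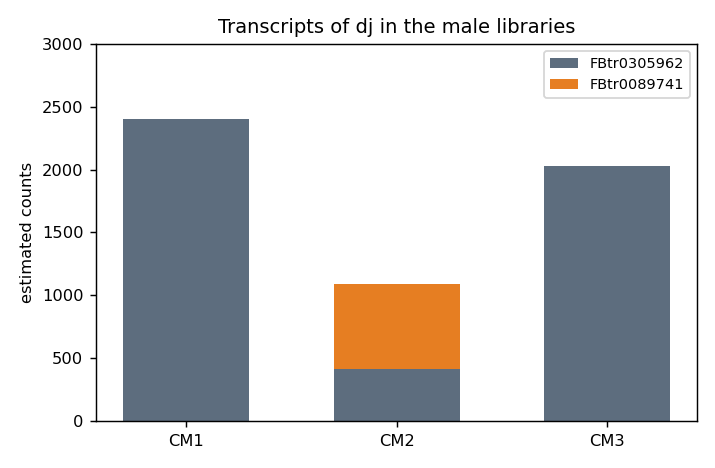
Estimated counts of dj in the 3 male libraries, stacked by transcript (the third annotated transcript had 0 counts in these libraries and is not drawn). CM1 and CM3 hold 2405 and 2025 counts of FBtr0305962 alone, and CM2 holds 416 of it and 673 of FBtr0089741.

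A relative of dj, don juan like (djl), was not low in that library, with 425, 970 and 379 counts in CM replicates 1, 2 and 3. The ratio of dj to djl per kilobase was 5.14, 1.06 and 4.85 in these libraries. Because these counts are estimates that divide reads between transcripts, the place of dj within CM replicate 2 is less certain than that of the single-transcript genes. Whether the assignment of reads lowered dj in that library was not tested.

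The mitofusin gene fzo was higher in males but far from absent in the other groups. It was at 13.6, 24.5 and 9.97 CPM in CM, at 3.49, 2.93 and 3.69 CPM in CF and at 4.99, 2.09 and 2.52 CPM in XXX. The CM libraries did not overlap with either group, and fzo was 4.76-fold higher in CM than in CF, a log2 fold change of 2.09 (standard error 0.31, adjusted p = 0.001, edgeR). The single exon of fzo, at 3R 23201644 to 23204034, lies wholly inside cnc (23185580 to 23226711) on the same strand and shares 0 exon bases with it, so fzo sits in an intron of cnc. That gene, which encodes a transcription factor of the stress response, was at 340 to 721 CPM in all 9 libraries. Per 1000 counts of cnc, fzo had 5.59 to 6.61 counts in CF, 5.66 to 9.54 in XXX and 28.5 to 34 in CM. Whether unspliced cnc RNA gave part of the fzo counts in CF and XXX was not tested.

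In its somatic relative Marf, the mitofusin of other tissues, no male difference was called: the mean was 33.6 CPM in CM and 37.6 CPM in CF (log2 fold change -0.29, adjusted p = 0.116, edgeR). Of the level per kilobase of fzo and Marf together, fzo made up 35.8%, 48.6% and 37.4% in CM and 11.1% to 13.2% in CF.

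The beta-tubulin gene betaTub85D was the highest of the 10 in males by CPM, with 48.6, 73 and 33.3 CPM in CM. In CF it had 3, 8 and 9 counts and in XXX 21, 10 and 17 counts, or at most 0.15 CPM. It was 1150-fold higher in CM than in CF, a log2 fold change of 10.05 (standard error 0.44, adjusted p = 6.73e-06, edgeR). Against the other beta-tubulins of the whole larva it stayed a minor form: of the summed level per kilobase of betaTub56D, betaTub60D, betaTub97EF and betaTub85D, it took 2.86%, 4.06% and 2.36% in CM and at most 0.00884% in any CF or XXX library. None of the other tubulins listed was called between CM and CF. The ubiquitous betaTub56D was at 1228 ± 142 CPM in CM (SD, n = 3) and a mean of 1186 CPM in CF (log2 fold change -0.06, adjusted p = 0.869, edgeR), and alphaTub84B, the main alpha-tubulin, was at means of 813 and 764 CPM (adjusted p = 0.927).

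Levels of different genes were compared per kilobase of transcript. In males, Mst87F led with 74.6 ± 11.3 CPM per kilobase (SD, n = 3). The 4 Mst84D genes followed at 63.1 for Mst84Db, 62.1 for Mst84Da, 60.3 for Mst84Dd and 55.9 for Mst84Dc, in means of CPM per kilobase. The ranges over the 3 CM libraries overlapped between neighbours from Mst87F down to Mst84Dc, so that order is not fixed beyond the spread. Within each library, however, Mst87F lay above all 4 Mst84D genes, and Mst84Dd lay above Mst84Dc, in 3 of 3 libraries. A step that the ranges did not bridge led to betaTub85D at 28.1 ± 10.9 CPM per kilobase, and another to dj at 11 ± 5.07. Below it the ranges of dj, fzo at 6.71, Mst98Cb at 5.5 and Mst98Ca at 4.27 CPM per kilobase overlapped in turn, although fzo lay above Mst98Cb and Mst98Cb above Mst98Ca in 3 of 3 libraries. The shortest transcripts here, of 358 to 515 bases, were also the highest, and a level per kilobase is least certain for transcripts close to the length of the sequenced fragments.

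Within the males, 9 of the 10 genes were highest in CM replicate 2 and lowest in CM replicate 3 by CPM. As a fraction of the male mean, their medians were 0.945, 1.31 and 0.74 in replicates 1, 2 and 3. This order was not particular to them: over 11216 genes with at least 1 CPM in males the medians were 1, 1.19 and 0.804, and 68.7% of those genes were highest in replicate 2. With trimmed mean of M-values (TMM) scaling, which sets the bulk of the genes equal, the medians of the 10 genes were 0.951, 1.16 and 0.893, and 7 of them were highest in replicate 2, beside 50.1% of all genes. Mst84Db and Mst87F then lost that place. The spread was then widest for dj, at 1.29, 0.384 and 1.33 of its male mean, and Mst98Ca, Mst98Cb, fzo and betaTub85D were at 1.26 to 1.37 of theirs in replicate 2. Among the other lists, with TMM scaling and at least 1 CPM in males, 25 of 25 other sperm protein genes and 9 of 10 Y-linked genes were highest in replicate 2. Of the regulators of the spermatocyte programme 3 of 13 were, and of the early germline genes 1 of 6. No test was made of these differences among 3 libraries.

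**Figure D3:**
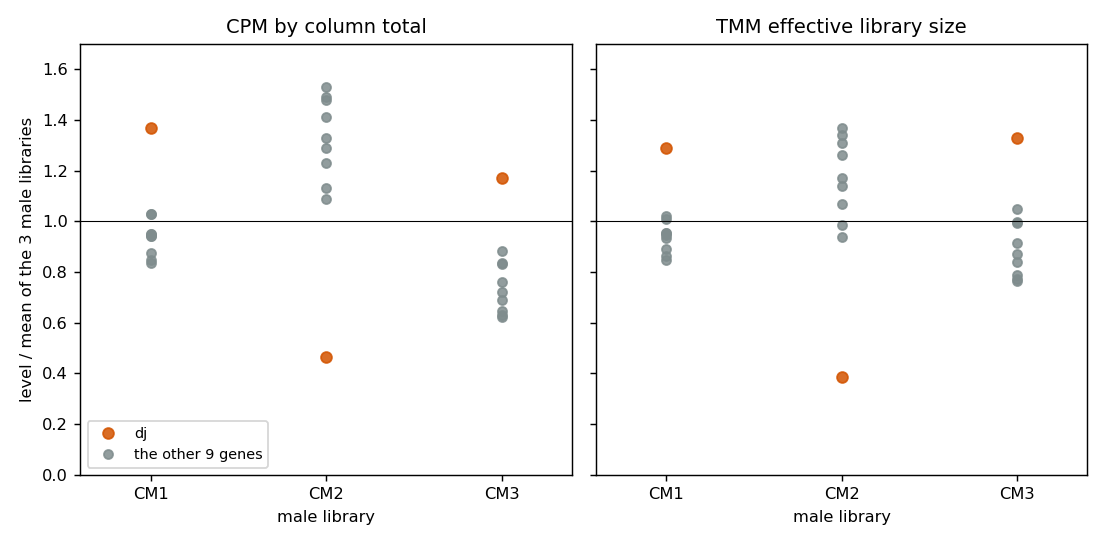
Level of each of the 10 genes in each male library divided by its mean over the 3 male libraries, with CPM by the column total on the left and TMM effective library sizes on the right. In both panels dj (orange) is lowest in CM2, at 0.463 and 0.384, while the 9 other genes (grey) lie at 1.09 to 1.53 in CM2 on the left; on the right 2 of them, Mst84Db and Mst87F, fall below 1.

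Between metafemales and females most of these genes were too low to compare. In XXX against CF, 0 of the 10 genes were called higher, beside 7.91% of all genes tested, and 1 was called lower, beside 4.07%. When CF and XXX were fitted without the males, only 3 of the 10 passed the filter on low counts, and 1 was called. DESeq2 called 2, since it also called betaTub85D higher. Only 4 of the 10 genes exceeded the floor in either group, namely Mst87F, fzo, betaTub85D and, through XXX replicate 3 alone, Mst98Ca. For the 4 Mst84D genes, Mst98Cb and dj, both groups were at or under 3 counts per library on average, and no fold is given.

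Mst87F fell in metafemales. Its XXX libraries, at 0.765, 0.446 and 1.11 CPM, lay below the 2.13 to 3.19 CPM of the CF libraries without overlap. The mean ratio of XXX to CF was 0.303, a log2 fold change of -1.68 (standard error 0.29, adjusted p = 0.00575, edgeR). It was called in each of the 17 alternatives, with log2 fold changes from -2.08 to -1.44 and adjusted p of at most 0.0245. In the same XXX libraries the 6 salivary glue genes, which are switched on late in the third instar, summed to 908 to 1902 CPM, against 6109 to 7660 CPM in CF and 6967 to 9583 CPM in CM, and 6 of 6 were called lower in XXX than in CF. Of the testis-related lists, 2 of 13 spermatocyte regulators, can and topi, were called lower in XXX than in CF. So was bam of 8 early germline genes tested, beside the 4.07% of all genes. Neither list fell as a whole, with median log2 fold changes of 0.00 for the regulators and -0.13 for the early germline genes. The call of can rests on 22, 20 and 20 counts in CF and 11, 13 and 5 in XXX. The sole call among the 25 other sperm proteins, S-Lap2, rests on 2, 3 and 3 counts in CF and 0 in XXX, at or under the floor. Of these topi, at 0.78 to 1.38 CPM in CF and 0.262 to 0.409 CPM in XXX, and bam, at 1.16 to 1.74 and 0.345 to 0.464 CPM, were picked out after their values were seen. The part of larval stage in the level of Mst87F was not tested.

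For fzo no difference beyond the spread was found. The mean was 3.37 ± 0.393 CPM in CF and 3.2 ± 1.57 CPM in XXX (SD, n = 3), and the groups overlapped (log2 fold change -0.07, standard error 0.3, adjusted p = 0.928, edgeR). XXX replicate 1, with 4.99 CPM, was above all CF libraries and the other XXX libraries were below them. In that library 13.45% of the counts fell on transcripts assembled by the authors that belong to no annotated gene, against 24.55% to 32.59% in the other 8 libraries. Whether this share bears on the level of fzo there was not tested.

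For betaTub85D the mean was 0.103 ± 0.0453 CPM in XXX and 0.0449 ± 0.0255 CPM in CF (SD, n = 3), and the ranges overlapped. The log2 fold change was 1.27 (standard error 0.45) with an adjusted p of 0.0697 in edgeR, and 1.29 with an adjusted p of 0.0235 in DESeq2, so the call depends on the tool. With 20 counts in all CF libraries and 48 in all XXX libraries together, the comparison rests on few reads. For Mst98Ca, 13 counts in XXX replicate 3 stood against 2 in CF, a pooled ratio of 6.44 (95% counting interval 1.46 to 58.8; adjusted p = 0.288, edgeR), and the fitted direction turned when that library was left out. The Y-linked genes were at 0 in that library too, and the source of its Mst98Ca counts was not tested.

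**Figure D4:**
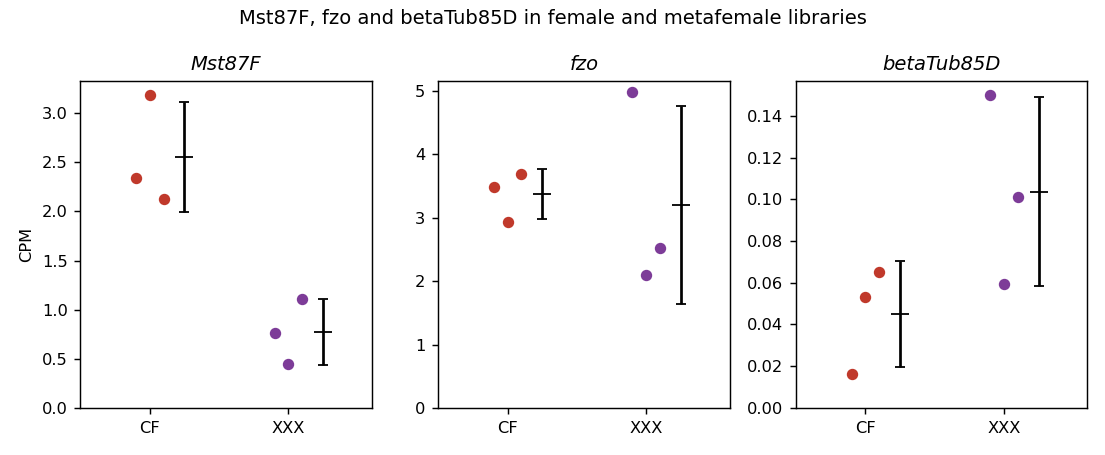
CPM of Mst87F, fzo and betaTub85D in the CF and XXX libraries, each on its own axis from 0, with points for libraries and a mean with SD beside them (n = 3). The XXX points lie below the CF points for Mst87F, with means of 0.775 and 2.55 CPM, and overlap with them for fzo and betaTub85D.

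Compared with males, metafemales were lower for every gene. In XXX against CM, 10 of 10 genes were called lower, beside 21.5% of all genes tested, and every CM library was above every XXX library for all 10, beside 36.8%. This comparison shares its male libraries with that of CM and CF. The 4 Mst84D genes, at 0 counts in each XXX library, were at least 1066-fold to 1377-fold higher in CM, with 3 counts per library as the floor. For dj, with 2 counts in XXX, the pooled level in CM was 2977-fold that in XXX (95% counting interval 824 to 24586). Mst98Ca, with 13 counts in XXX, was 217-fold higher in CM from pooled counts (95% counting interval 127 to 409). Mst98Cb, with 4 counts in XXX, was 734-fold higher (95% counting interval 286 to 2694). XXX replicate 3 held all XXX counts of both genes. The mean level in CM was 499-fold that in XXX for betaTub85D, 43-fold for Mst87F and 5.01-fold for fzo. The corresponding log2 fold changes of XXX against CM were -8.79, -5.26 and -2.15 (adjusted p = 6.61e-06, 1.63e-05 and 0.000605, edgeR).

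Other genes of sperm formation gave a frame for these values, in lists that were also chosen with earlier results of these data known. Of 25 further sperm proteins, 24 were called higher in CM than in CF, with a median log2 fold change of 9.96. Among them S-Lap7 and S-Lap4, leucyl aminopeptidases that are major proteins of the sperm, were at 108 ± 34.5 and 79.7 ± 30.5 CPM in CM (SD, n = 3), and loopin-1, of the same family, was at 91.2 ± 33.4 CPM. The exception was Mst89B, named here after its value was seen, at means of 1.39 CPM in CM and 0.102 CPM in CF. The median male level was 18.2 CPM per kilobase over these 25 genes and 42 CPM per kilobase over the 10 sperm structural genes.

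The comet and cup genes, which the adult testis transcribes after meiosis, were also counted in larval males, though lower. Of 17 tested, 15 were called higher in CM than in CF, with a median log2 fold change of 7.76. Their median level in CM was 3.04 CPM per kilobase over 19 genes, with w-cup at 14.5 ± 6.49 CPM (SD, n = 3) and c-cup, which had 0 counts in each CF and XXX library, at 9.32 ± 1.59 CPM. The remaining f-cup and m-cup had means of 26 and 26.6 CPM in CM, and of 15.6 and 14.4 CPM in CF as well. They missed only the fold-change threshold (log2 fold changes 0.60 and 0.74, adjusted p = 0.0233 and 0.00597, edgeR). The genes not tested, cola and scpr-A, named here after their values were seen, had 3 and 5 counts in all CM libraries together. The regulators of the spermatocyte transcription programme were called higher in CM than in CF in 13 of 13 cases, with a median log2 fold change of 5.95. Of these vis was at 22.2 ± 4.57 CPM and achi at 21 ± 4.25 CPM in CM. Of 8 early germline genes tested, 4 were called higher in CM than in CF, beside 17.3% of all genes tested. Among them were vas, a helicase of the germ plasm (4.36 CPM against 0.71 CPM), bgcn and aub. The others tested were not called. Of those piwi, named here after its value was seen, had a lower mean in CM (1.93 CPM) than in CF (2.72 CPM).

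**Figure D5:**
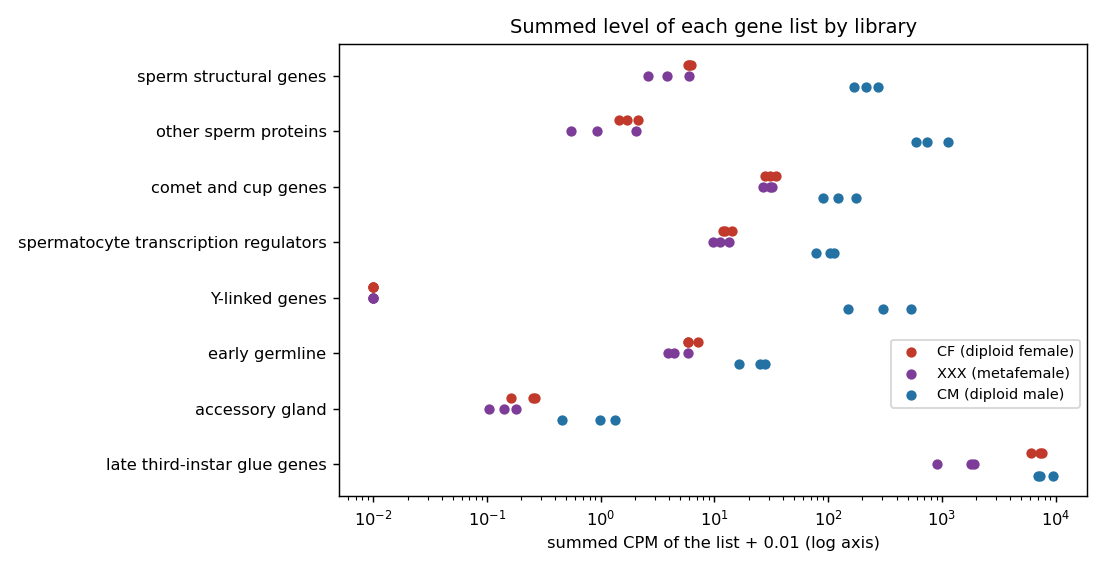
Summed CPM of each gene list in each library, plus 0.01, on a log axis, coloured by group. CM lies to the right of CF and XXX for every list but the glue genes, for the accessory gland list at no more than 1.33 CPM. The Y-linked list is at 0 in CF and XXX, and only the glue genes separate XXX (908 to 1902 CPM) from both controls.

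The genes whose pattern was most like the mean of the 10 were CG18449, S-Lap2, CG46059, CG17819 and S-Lap7, by Pearson's r of log2(CPM + 0.1) over the 9 libraries (0.9996 to 0.9997). They had male means of 14.3, 51.6, 21.3, 6.84 and 108 CPM, and at most 0.0289 CPM in any CF or XXX library. Such likeness was common, since 1200 of 11208 genes with at least 1 CPM in males reached r of 0.99, and it rests on the gap between CM and the other groups. Among the 10 genes, r with the mean of the other 9 was lowest for fzo (0.932) and Mst87F (0.944). These had the highest levels of the 10 in CF and XXX, and r was 0.983 or more for the rest.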

How the data were processed

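The authors made libraries depleted of ribosomal RNA. Reads were mapped by Hisat2 to the BDGP6 genome (Ensembl release 102), lncRNAs were screened with Cuffmerge, and StringTie assembled and quantified transcripts. The deposited values are estimated counts per transcript, whole numbers without normalization, for 42937 entries in 9 libraries, so no rounding was needed. Of 34919 FlyBase transcripts, 34750 could be matched to a gene in Ensembl release 115 (BDGP6.54), 169 were left out, and 1 entry named a gene. The 8017 assembled transcripts count toward library totals only. CPM used the column total, and CPM per kilobase divided each transcript by its annotated length before summing. Whether counting used strand is not given in the sources used here.

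Tests used edgeR 4.0.16 in R 4.3.3 (TMM, filterByExpr, quasi-likelihood test, Benjamini-Hochberg over all 13967 genes tested), on counts of all 9 libraries with 3 groups and no covariate. The standard error is the log2 fold change divided by the square root of F. DESeq2 1.42.0, other scalings and filters, fits on 2 groups, a replicate block and each library left out were alternatives. The fits were tested on simulated data. Counting intervals at 95% are exact binomial (Clopper-Pearson) on pooled counts. Tables used Python 3.11.15, pandas 2.3.3, numpy 2.4.6 and scipy 1.17.1, and figures matplotlib 3.10.9.

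The genes followed and the lists of other genes were chosen with earlier results of these data known. The text may name all paralogues and sex label genes, from every other list the 3 genes with the highest mean CPM in males and the 3 with the lowest adjusted p in CM against CF, and the 5 genes most like the 10 over the 9 libraries (at least 1 CPM in males). The gene o-cup was not matched by symbol, and 6 listed symbols were matched through RefSeq synonyms.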

Additional observations from a re-analysis of the deposited data

How the results depend on the processing

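Over the 10 genes, the calls between CM and CF and between XXX and CM were 10 of 10 in every alternative run, and Mst87F was called lower in XXX than in CF in all of them. The exceptions concern XXX against CF. DESeq2 called 2 of the 10 genes in place of 1, the added gene being betaTub85D, whose log2 fold change was 0.87 to 1.56 when single libraries were left out. For fzo, leaving out single libraries gave log2 fold changes of -0.44 to 0.11, with a turn to 0.01 without CF replicate 1, 0.11 without XXX replicate 2 and 0.05 without XXX replicate 3. For Mst98Ca the same range was -2.67 to 5.18, with -2.67 without XXX replicate 3, the only XXX library with counts; Mst98Ca without that library rests on 2 counts. Where the library left out held the only counts of the lower group, the fitted log2 fold change grew (Mst84Da to 14.66 without CF replicate 3, Mst98Ca to 12.64 without CF replicate 2 and dj to 13.96 without CF replicate 1, in CM against CF), since that group was then at 0. In XXX against CM the same held without XXX replicate 3 for Mst98Ca (-12.63) and Mst98Cb (-12.7) and without XXX replicate 1 for dj (-13.99). Without the fold-change threshold, the genes called rose to 3610 from 1673 in XXX against CF and to 7089 from 4343 in XXX against CM, because the threshold removes small changes by construction. Leaving out 1 library gave 1142 to 1830 genes for XXX against CF, 2401 to 2569 for CM against CF and 4033 to 4561 for XXX against CM.

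The replicate numbers are shared between groups in the labels, but same-numbered libraries did not deviate together (correlations of -0.218 to 0.188 over 9 pairs, -0.255 to 0.232 over 18 other pairs). With the replicate block, 2158 genes were called in CM against CF in place of 2474, 1395 in XXX against CF and 4122 in XXX against CM, and 10, 1 and 10 of the sperm structural genes. Scaling by the column total alone moved the median log2 fold change of all genes from 0.01 to 0.12 in CM against CF and from -0.14 to -0.31 in XXX against CM. With CPM over annotated genes only, the male means of Mst84Da, Mst84Db, Mst84Dc, Mst84Dd and Mst87F were 30.6, 36.2, 27.9, 34.6 and 46 CPM. Depth limits CF and XXX to levels above about 0.02 CPM.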

Other observations

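CF replicate 3 held more traces of sperm genes than the other females. Of the 10 sperm structural genes and 25 other sperm protein genes, 25 of 35 had a count in CF replicate 3, against 18 in replicate 1 and 16 in replicate 2, and 10 were counted in that female library only, against 1 and 1. The traces were small, with 17 of the genes at 1 to 10 counts there, and the Y-linked genes were at 0 in that library as in the other females. The source of these traces was not tested. In XXX, 17, 13 and 15 of the 35 genes had a count.

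Among the other tubulin genes listed, the beta-tubulin betaTub97EF and the alpha-tubulin alphaTub85E rose in metafemales. The mean of betaTub97EF was 396 CPM in XXX, 95 CPM in CF and 89.5 CPM in CM (XXX against CF, log2 fold change 2.11, adjusted p = 0.00181, edgeR). The mean of alphaTub85E was 38.1 CPM in XXX, 10.1 CPM in CF and 13.6 CPM in CM (log2 fold change 1.94, adjusted p = 0.00159, edgeR). Of the 8 genes listed, which are alpha-tubulins, other beta-tubulins and Marf, the 6 others were not called between XXX and CF. Of these Marf missed only the fold-change threshold (log2 fold change 0.61, adjusted p = 0.00638, edgeR). The gene alphaTub67C was too low to judge, at means of 0.125 CPM in XXX and 0.0585 CPM in CF.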
